A study of Danio rerio with 12 samples.

Results

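Globins and other genes of red blood cells were followed through the brains of adult zebrafish from a control lineage and from a lineage with an ancestral methylmercury exposure. The genes were taken by name, with earlier results of these data known. Of 10 symbols, 8 had a row among the 32674 genes of the deposited tables: the globins ba1, hbae1 and hbae3, and the red cell genes alas2, cahz, slc4a1a, nt5c2l1 and epb41b. The globin symbols ba1l and hbaa1 matched no row and were not analysed here. A filter on low values, a scaled count of at least 10 in at least 6 libraries, left 16364 genes for testing and 6 of the 8. The globins hbae1 and hbae3 fell below it.

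Hemoglobin, the oxygen carrier of blood, joins alpha and beta globin chains around heme, and fish switch from embryonic to adult globin genes as they grow. Fish red blood cells keep their nucleus, and circulating cells still hold abundant globin messenger RNA. Whole brain tissue contains vessels with blood, so RNA of red cells enters a brain library together with that of neurons, glia and vessel walls.

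Eggs of the EK strain received either 0.03 µM methylmercury (MeHg) in ethanol or ethanol alone for 24 h, and these fish were called the F1 generation. Their F2 and F3 descendants were never exposed, and the libraries came from total RNA of adult F3 brains. The control lineage therefore descends from vehicle-treated eggs, and by the labels the MeHg lineage differs from it in the exposure of its ancestors. Columns named for a sample gave control replicates 2, 4, 5, 6 and 8 (5 libraries) and MeHg replicates 1, 2, 4, 5, 7 and 8 (6 libraries). The labels also list control replicate 1, which has no named column, so 11 of 12 samples were analysed. The labels call the samples biological replicates and leave unsaid how many brains went into each and whether blood was rinsed out. All fish share the strain, and the labels name no batch within the series.

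The deposited counts had been scaled between libraries, and the step between low values gives the size of 1 fragment in each. By that step the libraries held from 2062482 to 7503932 fragments, and the scaled totals ran from 4469656 to 5717056. The total was highest in control replicate 5. Of 15 neuronal genes looked for, 12 had a row, such as snap25a and elavl3; all 12 passed the filter, and their summed level was 0.652% to 0.850% of all scaled counts in every library. Every library thus carried the labelled tissue. Markers of skin and muscle stood apart in a few libraries. Epidermal genes made up 1.65% of the scaled counts in control replicate 4, 1.14% in MeHg replicate 5 and 0.650% in MeHg replicate 4, against 0.0304% to 0.137% in the other libraries. Skeletal muscle genes made up 0.684% in MeHg replicate 4, and at most 0.130% in any other library.

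The adult beta globin ba1 (ENSDARG00000089087) was the most abundant of the genes per length. Its scaled count in the control lineage was 2206 in replicate 2, 7781 in replicate 4, 23549 in replicate 5, 4248 in replicate 6 and 3674 in replicate 8. In the MeHg lineage it was 4817 in replicate 1, 2993 in replicate 2, 17405 in replicate 4, 3199 in replicate 5, 4476 in replicate 7 and 4817 in replicate 8. A single library of each lineage, control replicate 5 and MeHg replicate 4, lay far above the rest of its lineage, and the remaining values of the lineages overlapped. The highest control library held 10.7 times the ba1 of the lowest. In FPKM, the second deposited unit, which divides fragments by transcript length and library depth, ba1 ranked between place 8 and place 61 among all genes of a library, with a median place of 22.

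The red cell enzyme of heme synthesis followed ba1 closely, though it rose less than ba1 in MeHg replicate 4. The gene alas2 (ENSDARG00000038643) encodes the erythroid form of aminolevulinate synthase, which carries out the first step of heme synthesis. Its scaled count was 167, 539, 1676, 312 and 234 in control replicates 2, 4, 5, 6 and 8. In MeHg replicates 1, 2, 4, 5, 7 and 8 it was 396, 264, 686, 257, 294 and 451. Control replicate 5 was again the highest library and control replicate 2 the lowest, with every MeHg library between them. In MeHg replicate 4, alas2 was 3.94% of the ba1 scaled count, against 6.36% to 9.36% in the other libraries.

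Genes of the red cell membrane were high in the same libraries at lower levels. The anion exchanger gene slc4a1a (ENSDARG00000012881), whose product moves bicarbonate across the red cell membrane, had scaled counts of 61.7, 323, 569, 150 and 97.9 in control replicates 2, 4, 5, 6 and 8. Its MeHg values were 107, 82.6, 362, 114, 143 and 257 in replicates 1, 2, 4, 5, 7 and 8. The skeletal gene epb41b (ENSDARG00000029019), of the family that ties spectrin and actin to the membrane, had 84.6, 343, 502, 145 and 102 in the same control libraries and 145, 94.5, 296, 96.4, 122 and 241 in the same MeHg libraries. For both genes the highest libraries were control replicate 5, MeHg replicate 4 and control replicate 4, and the MeHg values lay within the control range. Like alas2, both had their lowest share of the ba1 scaled count in MeHg replicate 4. There slc4a1a stood at 2.53 and epb41b at 2.04 times its median, against 3.89 times for ba1. The cause of this lag was not tested. At the smallest, slc4a1a rested on 27 fragments in a library, and ba1 on 965.

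The enzymes cahz and nt5c2l1 departed from this pattern in control replicate 4. The gene cahz (ENSDARG00000011166) encodes a carbonic anhydrase of zebrafish red cells, an enzyme that interconverts carbon dioxide and bicarbonate. It had scaled counts of 745, 845, 4209, 720 and 880 in control replicates 2, 4, 5, 6 and 8, and of 1051, 488, 1982, 898, 627 and 1105 in MeHg replicates 1, 2, 4, 5, 7 and 8. Control replicate 5 and MeHg replicate 4 were high, while control replicate 4, which was raised in the other members, lay at 0.961 times the cahz median. The gene nt5c2l1 (ENSDARG00000034852), of a family of cytosolic nucleotidases, showed the opposite departure. Its scaled counts were 306, 1577, 1037, 465 and 293 in the control libraries and 284, 177, 838, 255, 339 and 712 in the MeHg libraries, in the same order. It was highest in control replicate 4, at 4.64 times its median, and second in control replicate 5. Set against ba1, nt5c2l1 was 20.3% of the ba1 scaled count in control replicate 4 and 4.40% in control replicate 5, the extremes of its range, and cahz was 10.9% in control replicate 4 and 33.8% in control replicate 2, the extremes of its own.

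**Figure D1:**
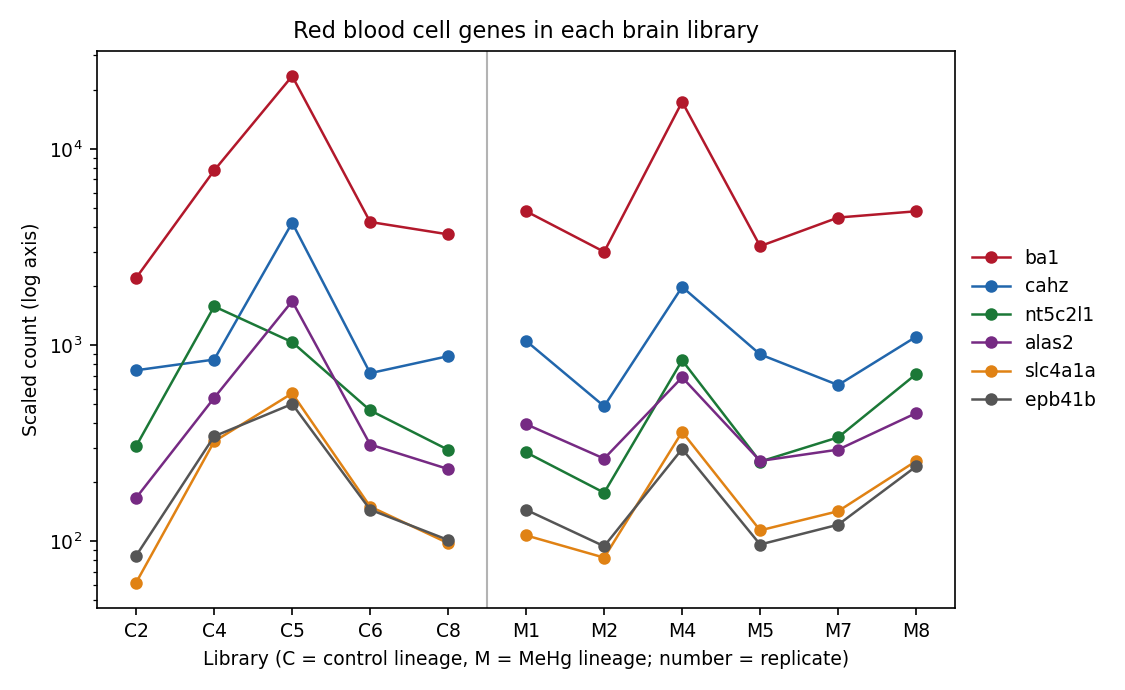
Scaled count (log axis) of 6 red blood cell genes in each of 11 brain libraries, 5 control (C) and 6 MeHg (M), with lines joining the values of a gene within a lineage. Most genes peak in control replicate 5 (ba1 23549) and MeHg replicate 4 (ba1 17405); nt5c2l1 peaks in control replicate 4 (1577), where cahz (845) does not rise.

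Most embryonic globin rows were near or at 0 in these adult brains. The row hbae1 was 0 in all 11 libraries, and hbae3 held 1 fragment in control replicate 4 and 1 in MeHg replicate 5. With 7 more rows of embryonic globins, 6 of 9 rows were at 0 in every library. All 9 rows held 9 fragments over all libraries, against 60121 for ba1. The gene hbae4, which passed the filter, is not among these 9 and held 365 fragments. A count of 0 allows up to 3 fragments, which is a scaled count of 2.01 to 6.86 depending on the library, and this limit covers counting error only. No fold between lineages is given for hbae1 or hbae3.

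Other globins stand in the tables under clone names, and 4 were added after their values were seen, with their names taken from RefSeq. Among them is hbae4, which is named as an embryonic globin. The alpha globin hbaa1.2 (ENSDARG00000079078) had scaled counts of 2722, 9198, 31026, 5560 and 4540 in control replicates 2, 4, 5, 6 and 8, and of 6655, 4293, 21772, 4666, 5873 and 6283 in the MeHg libraries. Its FPKM was 1.24 to 1.47 times that of ba1 in every library, a narrow range beside the 10.4-fold range of ba1 itself. In RefSeq's assembly GRCz12tu, ba1 (there called hbba1) and hbaa1.2 are direct neighbours in an uninterrupted row of 13 globin genes that also holds ba1l, hbaa1, hbaa2, hbba2 and hbae3. The sources used here do not give how fragments from near-identical globin copies were divided among rows, and the levels of single copies are uncertain.

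The minor adult globins did not keep a fixed ratio to ba1. The beta globin hbba2 (ENSDARG00000069734) had 151, 357, 2247, 298 and 171 in the control libraries and 119, 100, 528, 178, 171 and 377 in the MeHg libraries. The alpha globin hbaa2 (ENSDARG00000069735) had 59.4, 73.0, 1212, 86.0 and 21.3, and 56.3, 35.4, 181, 79.0, 56.5 and 137. Both were highest in control replicate 5, where hbba2 reached 9.54% and hbaa2 5.15% of the ba1 scaled count, while in MeHg replicate 4 they stood at 3.04% and 1.04%. The gene hbae4 (ENSDARG00000045144), named as an embryonic alpha globin but above the filter here, ran from 4.57 in control replicate 2 to 205 in control replicate 5 and reached 85.0 in MeHg replicate 4. Its lowest value rested on 2 fragments, fewer than the 3 of the counting limit above, and its highest on 98. In GRCz12tu hbae4 lies in a separate group of 4 globin genes.

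**Figure D2:**
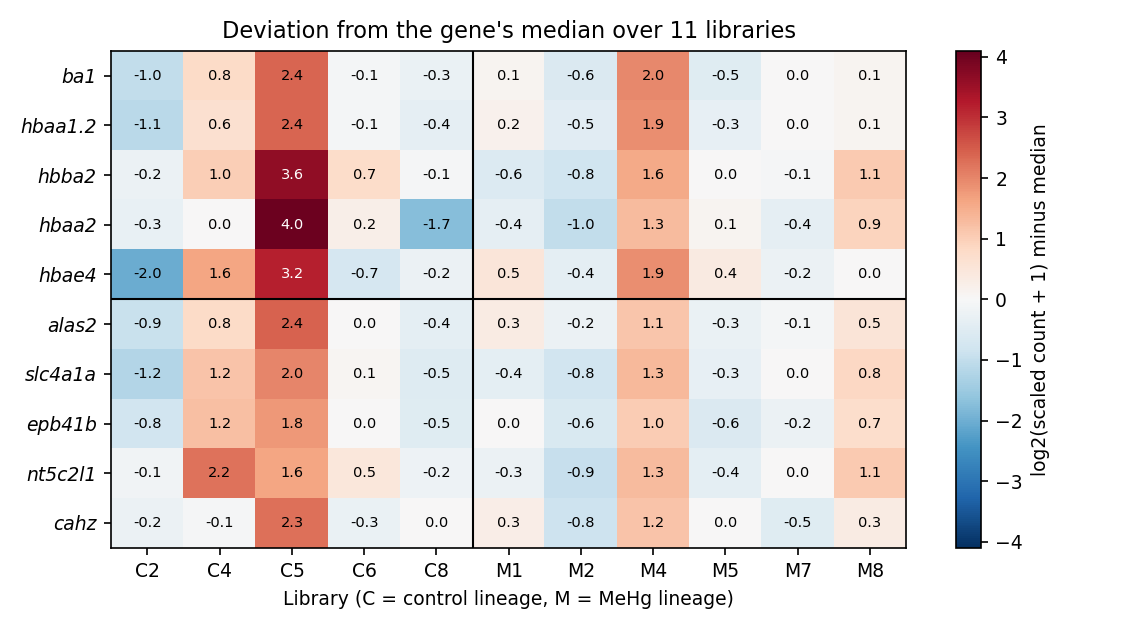
Deviation of each gene in each library from its own median over 11 libraries, in log2(scaled count + 1), for 5 globins (above the line) and 5 other red cell genes (below), with control libraries (C) left and MeHg libraries (M) right. Control replicate 5 is raised in every row and most in hbaa2 and hbba2; control replicate 4 is raised most in nt5c2l1 and lies near the median in cahz and hbaa2.

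Compared per length, the order of the 6 tested genes was ba1, cahz, nt5c2l1, alas2, slc4a1a and epb41b. The median FPKM was 1792 for ba1 (range 903 to 9384) and 91.9 for cahz (51.2 to 442), the only neighbours in this order whose ranges did not meet. It was 31.5 for nt5c2l1 (16.1 to 146) and 22.9 for alas2 (12.4 to 124). The FPKM of cahz exceeded that of nt5c2l1 in 10 of 11 libraries, and that of nt5c2l1 exceeded that of alas2 in 8 of 11. Neither pair held its order in every library. The lowest genes were slc4a1a at 7.58 (3.29 to 40.2) and epb41b at 5.08 (2.97 to 17.6), and slc4a1a was above epb41b in 11 of 11 libraries. Together ba1 and hbaa1.2 took 0.104% to 0.955% of the scaled counts of a control library and 0.152% to 0.835% of those of a MeHg library.

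The comparison of lineages asks whether an ancestral MeHg exposure came with another level of these genes in the F3 brain. None of the 6 tested genes passed the threshold, an adjusted p of at most 0.05 over all tested genes, and none was under 0.05 without adjustment. Over all tested genes, 0.269% passed the threshold (0.0978% higher and 0.171% lower in the MeHg lineage), and 6.61% were under 0.05 without adjustment. Each of the 6 overlapped between the lineages, where 1.37% of all tested genes did not. All 6 estimates lay below 0, with a median log2 difference (MeHg minus control) of -0.22, beside a median of 0.03 and 45.7% below 0 over all tested genes. The 6 values share their libraries and are not independent of each other, and the sign rests on control replicate 5: without it, 5 of the 6 estimates lay above 0.

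The scaled count of ba1 was 8292 ± 8772 (SD, n = 5) in the control lineage and 6284 ± 5506 (SD, n = 6) in the MeHg lineage. Its log2 difference was -0.18 ± 0.58 (SE; limma adjusted p = 0.961), with a 95% interval of -1.43 to 1.07 that spans both directions, and without control replicate 5 it was 0.33. For alas2 the means were 586 ± 626 (n = 5) and 391 ± 164 (n = 6), and the log2 difference of -0.15 ± 0.50 (limma adjusted p = 0.964) became 0.37 without control replicate 5. The spread of alas2 in the control lineage came largely from that library.

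The membrane genes gave similar estimates. The mean of slc4a1a was 240 ± 209 (SD, n = 5) in controls and 177 ± 109 (SD, n = 6) in the MeHg lineage, a log2 difference of -0.19 ± 0.54 (limma adjusted p = 0.957) that became 0.23 without control replicate 5 and 0.029 without control replicate 4. For epb41b the means were 235 ± 181 and 166 ± 83.5, and the log2 difference of -0.30 ± 0.47 (limma adjusted p = 0.934) became 0.060 without control replicate 5. Both estimates were smaller than their standard errors.

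For cahz the means were 1480 ± 1527 and 1025 ± 527, and the log2 difference of -0.26 ± 0.46 (limma adjusted p = 0.941) became 0.22 without control replicate 5. The largest estimate was that of nt5c2l1, with 736 ± 559 in controls and 434 ± 272 in the MeHg lineage. Its log2 difference was -0.66 ± 0.51, with a 95% interval of -1.75 to 0.44 (limma adjusted p = 0.879). It was the only one of the 6 to keep its sign without any single library, between -0.90 and -0.30, and it still did not pass the test. Among the added globins the log2 differences were -0.07 ± 0.57 for hbaa1.2, -0.82 ± 0.65 for hbba2, -0.36 ± 0.81 for hbaa2 and -0.01 ± 0.78 for hbae4, and their lowest limma adjusted p was 0.883.

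**Figure D3:**
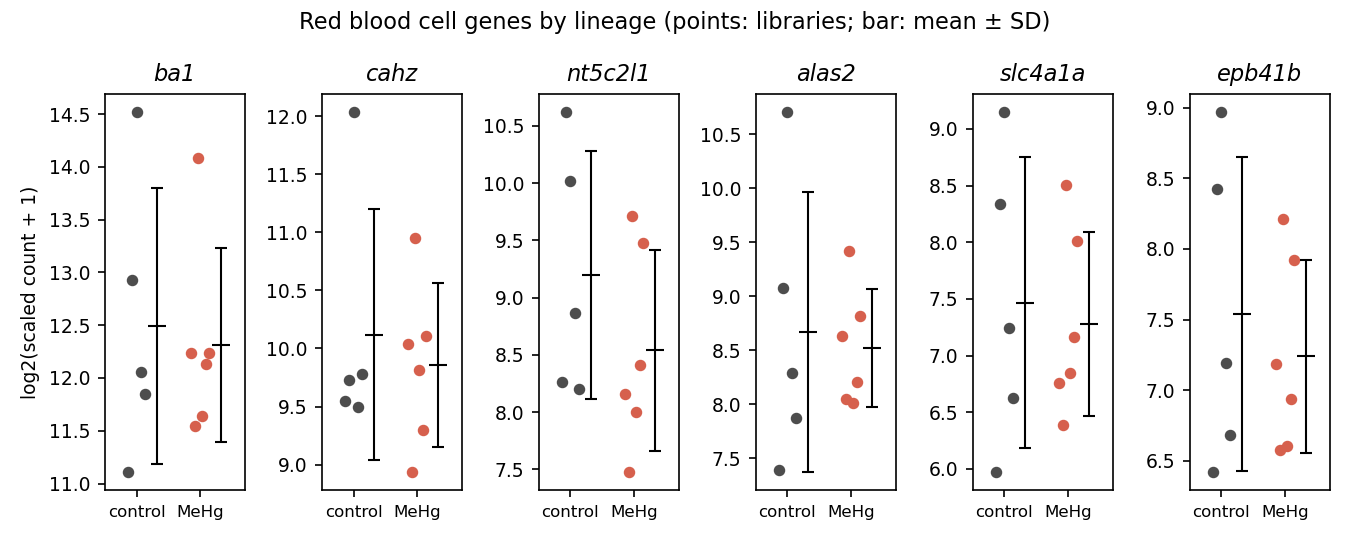
Each library's log2(scaled count + 1) for 6 red blood cell genes in the control (n = 5) and MeHg (n = 6) lineages, with the mean and SD as a bar beside the points; each panel has its own axis, which does not start at 0. The lineages overlap in every panel, and the log2 differences of the means run from -0.66 (nt5c2l1) to -0.15 (alas2), each smaller than the SD of the control lineage.

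The variation lay between libraries. The SD of log2(scaled count + 1) over the 11 libraries was 1.06 for ba1 and 0.86 for cahz, with the other 4 genes between them, against a median of 0.40 over all tested genes. For ba1, 92.9% of tested genes had a smaller SD, and for cahz, the least variable of the 6, 87.7%. Control replicate 5 was the highest library for 5 of the 6 genes and stood at 3.05 to 5.36 times their medians. MeHg replicate 4 was among the highest 3 libraries for all 6, at 2.04 to 3.89 times the median. At the other end, control replicate 2 was the lowest library for 4 genes and MeHg replicate 2 for cahz and nt5c2l1. Control replicate 5 also stood apart in genes outside this set. It was low in epas1b (52 against a median of 283) and aco1 (14.6 against 92.1). It was high in higd1a (702 against 423) and tmem14ca (215 against 125). Without it, 1527 tested genes were under an unadjusted limma p of 0.05, against 1082 with all libraries and 1464 without control replicate 4.

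The genes rose and fell together. They had been chosen with earlier results of these data known, so the p values below describe this set and are no independent support. Each of the 5 genes correlated with ba1 over the 11 libraries in log2(scaled count + 1), in permutation tests of 100000 resamples, two-sided and adjusted over these 5 relations. Pearson's r was 0.95 for alas2 (p = 2e-05, the smallest these resamples can give; adjusted p = 1e-04), with a Spearman's rho of 0.95 (adjusted p = 2e-04). It was 0.92 for slc4a1a (p = 4e-05, adjusted p = 1e-04; rho 0.92, adjusted p = 4e-04) and 0.91 for epb41b (p = 1e-04, adjusted p = 0.000167; rho 0.96, adjusted p = 1e-04). The enzymes lay lower, with an r of 0.87 for cahz (p = 0.00298, adjusted p = 0.00373; rho 0.69, adjusted p = 0.0227) and 0.76 for nt5c2l1 (p = 0.011, adjusted p = 0.011; rho 0.80, adjusted p = 0.00538).

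The 2 libraries farthest from the ba1 median were control replicate 5 and MeHg replicate 4, and the relations were computed again without them. Over the remaining 9 libraries, in exact permutation tests, r was 0.93 for alas2 (adjusted p = 0.000593), 0.90 for epb41b (adjusted p = 0.000413), 0.89 for slc4a1a (adjusted p = 0.00144) and 0.79 for nt5c2l1 (adjusted p = 0.0206). For nt5c2l1 the rank correlation then missed the threshold (rho 0.68, exact adjusted p = 0.0629). The relation of cahz to ba1 no longer held over these 9 libraries (r 0.36, exact adjusted p = 0.333). Over all libraries it thus depended on those 2, though within the MeHg lineage its rank correlation was high, as given below. Among the 10 pairs of genes other than ba1, r ran from 0.60 to 0.97 in all libraries, with 9 past an adjusted permutation p of 0.05, and from 0.38 to 0.94 in the 9 libraries, with 6 past it in exact tests. Spearman's rho of these pairs ran from 0.43 to 0.95 with 6 past the threshold, and from 0.13 to 0.92 with 5 past it in the 9 libraries.

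Within the MeHg lineage alone, over its 6 libraries, r with ba1 was 0.93 for alas2, 0.85 for cahz, 0.84 for slc4a1a, 0.80 for nt5c2l1 and 0.85 for epb41b. Exact permutation tests gave adjusted p values from 0.0139 to 0.0361 over these 5. The rank correlations ran from 0.83 to 1, with 0.94 for cahz (exact adjusted p = 0.0208). That of slc4a1a missed the threshold (exact adjusted p = 0.0583). No correlation is given for the 5 control libraries, which are fewer than the minimum of 6 used here. In bulk tissue, fewer red cells and less of these RNAs per cell cannot be told apart.

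**Figure D4:**
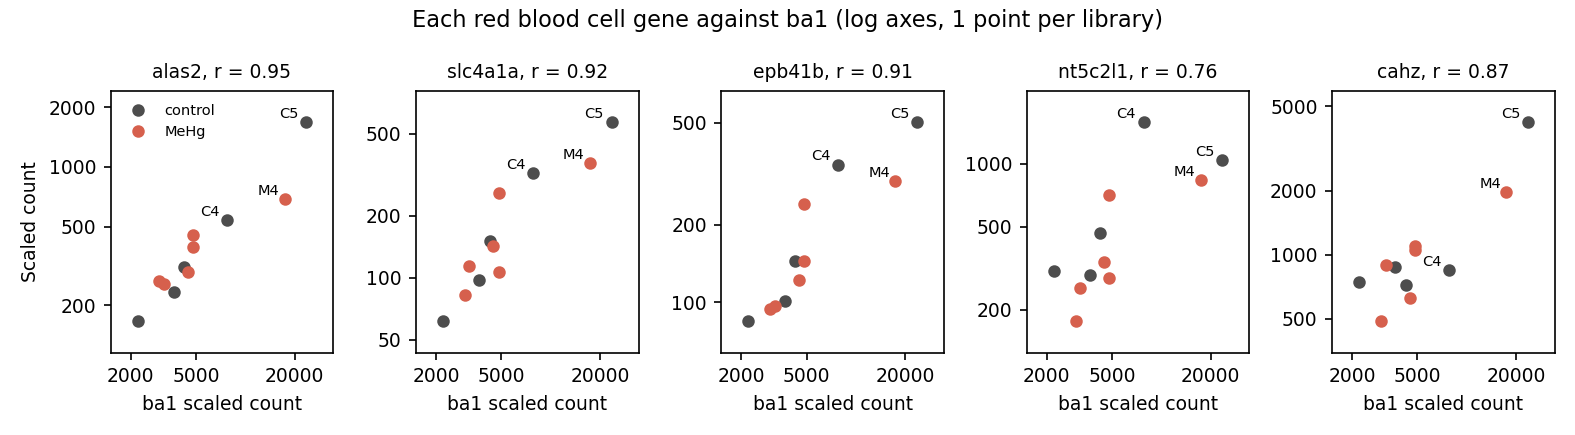
Scaled count of 5 red blood cell genes against that of ba1, both on log axes, with 1 point per library (5 control, 6 MeHg) and Pearson's r of log2(scaled count + 1) over all 11 above each panel. The points for alas2, slc4a1a and epb41b lie along a line with and without C5 and M4; for cahz the other 9 libraries show no line (r 0.36).

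Across all tested genes, the pattern most like that of ba1 was that of hbaa1.2, with an r of 0.996 over 11 libraries. Ranked by r among 16363 genes, alas2 was at place 3, hbae4 at 6, slc4a1a at 7, epb41b at 12, hbba2 at 34, cahz at 35, hbaa2 at 139 and nt5c2l1 at 301. Without control replicate 5 and MeHg replicate 4, alas2 was at place 4, epb41b at 8, slc4a1a at 12, hbae4 at 34 and nt5c2l1 at 93, while hbba2 was at 603, cahz at 2360 and hbaa2 at 2885. The r of these 3 genes was then 0.61, 0.36 and 0.31. For scale, 16 genes reached an r of 0.9, and the median r of all tested genes was -0.062.

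The 12 named genes most like ba1, members and clone names left out, were scpep1, myl9a, pim2, fabp10b, coro1a, tspan4b, gp9, fam53b, napab, nmt1b, hnrnpk and gata1a, with r from 0.92 for scpep1 down to 0.88 for gata1a. The set holds gata1a, the transcription factor that drives red cell formation, gp9, a surface glycoprotein of thrombocytes, and coro1a, an actin regulator of white blood cells. Scaled counts of gata1a ran from 9.14 in control replicate 2 to 85.7 in control replicate 5 and were 61.2 in MeHg replicate 4. Those of gp9 were 89.9 and 72.5 in the same high libraries against a median of 22.1. Outside the 2 high libraries, r was 0.90 for fam53b, 0.87 for pim2 and 0.70 for gata1a, but 0.49 for coro1a. The likeness of hnrnpk, an RNA-binding protein, depended on the table, since its r was 0.27 in FPKM.

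Other genes of red cells were followed in lists that were, like the genes above, put together with earlier results of these data known. No gene of any list passed the threshold between lineages by limma, where 0.269% of all tested genes did. The counts under an unadjusted p of 0.05 in each list stand beside 6.61% over all tested genes. Among 10 tested genes of red cell enzymes and maturation, the median r with ba1 was 0.66 (0.43 without the 2 high libraries) and the median log2 difference was -0.27, with 1 gene under an unadjusted p of 0.05. The erythroid gene hemgn, listed under a clone name, had an r of 0.93 and the peroxide-reducing gpx1a 0.88, whereas bpgm, which makes the hemoglobin regulator bisphosphoglycerate, had 0.13. The lowest was ube2o, at -0.65 and at -0.06 without the 2 high libraries. For prdx2 the values were 0.43 and -0.38. Among the list's smallest p values were those of histh1l (log2 difference -0.63 ± 0.29, limma adjusted p = 0.754) and bpgm (0.24 ± 0.13, limma adjusted p = 0.816).

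Among 14 genes of the red cell membrane and skeleton, the median r was 0.38 (0.28 without the 2 high libraries) and the median log2 difference 0.03, with 1 gene under an unadjusted p of 0.05. The blood group proteins rhag (r 0.85) and rhd (0.81), the actin-capping tmod4 (0.85), the spectrin gene sptb (0.64) and kel (0.59) had positive values, of which tmod4 fell to 0.27 without the 2 high libraries. The ankyrins ank1b (-0.80), the most abundant gene of the list, and ank1a (-0.48), the transporter xk (-0.46) and the glucose transporter slc2a1a (-0.91), a gene of brain vessels as well, had negative values. Without the 2 high libraries, ank1a was at 0.13. The smallest p values were those of xk (-0.39 ± 0.16, limma adjusted p = 0.715) and gypc (0.61 ± 0.33, limma adjusted p = 0.821).

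Among 16 erythroid transcription factors and receptors the median r was 0.31 (0.47 without the 2 high libraries), the median log2 difference was -0.06, and 1 gene was under an unadjusted p of 0.05. Beside gata1a, the highest were lmo2 (0.85), nfe2 (0.76) and klf1 (0.75), all regulators of blood cell formation. Without the 2 high libraries they were at 0.66, 0.52 and 0.67. The lowest were stat5a (-0.63), zfpm1 (-0.35), bach1a (-0.32) and epo (-0.30). Without those libraries these genes were at -0.21, -0.28, 0.52 and -0.36. The regulator tal1, at 362 in controls and 247 in the MeHg lineage, had a log2 difference of -0.56 ± 0.18 (limma adjusted p = 0.453), and klf3 one of 0.76 ± 0.63 (limma adjusted p = 0.887).

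General heme and iron genes had median r values near 0. Among 15 heme synthesis genes the median r was 0.04 and the median log2 difference 0.00, with 2 genes under an unadjusted p of 0.05. The highest r values were those of uros (0.76, and -0.15 without the 2 high libraries) and hmbsa (0.71 and 0.50), enzymes of the middle steps. The housekeeping synthase alas1 had an r of 0.25, and fech, which inserts the iron, -0.33. The smallest p values were those of tmem14cb (0.88 ± 0.36, limma adjusted p = 0.682) and slc25a38b (0.25 ± 0.11, limma adjusted p = 0.743). Among 12 genes of heme breakdown and iron the median r was 0.14 and the median log2 difference -0.19. Of these 12, 3 genes were under an unadjusted p of 0.05, as were 6.61% of all tested genes. The heme oxygenase hmox2a had scaled counts of 373 in controls and 244 in the MeHg lineage (log2 difference -0.60 ± 0.15, limma adjusted p = 0.233). The biliverdin reductase blvra had 118 and 58.5 (-0.91 ± 0.27, limma adjusted p = 0.368). The ferritin gene fth1a had an r of 0.72 and the transferrin receptor tfr1b one of -0.77.

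Globins outside red cells were apart from ba1 as well. Neuroglobin ngb had an r of -0.09, cytoglobin cygb2 0.12 and myoglobin mb 0.37, and the median log2 difference of the 3 was -0.36 with none under an unadjusted p of 0.05 (cygb2 -0.39 ± 0.21, limma adjusted p = 0.820; ngb -0.36 ± 0.21, limma adjusted p = 0.834). Among 16 hypoxia response genes the median r was -0.34 (-0.17 without the 2 high libraries) and the median log2 difference 0.04, with 1 gene, egln2 (0.95 ± 0.38, limma adjusted p = 0.675), under an unadjusted p of 0.05. The next smallest p was that of the hormone gene epo (-0.35 ± 0.29, limma adjusted p = 0.887).

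Markers of other cells varied with the red cell genes in part. The 5 tested thrombocyte genes had a median r of 0.79 (0.43 without the 2 high libraries), and the summed share of the 8 thrombocyte genes with a row was 0.0167% in MeHg replicate 4, 0.0125% in control replicate 4 and 0.0124% in control replicate 5, against 0.00345% to 0.00618% in the other libraries. The 13 tested leukocyte and microglia genes had a median r of 0.65 (0.40), and the 16 with a row summed to 0.519%, 0.328% and 0.299% in control replicate 4, MeHg replicate 4 and control replicate 5, against 0.157% to 0.244% elsewhere. In control replicate 4 most of the sum was apoeb, a lipid carrier of microglia and glia, with a scaled count of 14920 against a median of 3767. Without apoeb, a sum added after its values were seen, the shares were 0.221% in MeHg replicate 4, 0.204% in control replicate 5 and 0.185% in control replicate 4, against 0.0989% to 0.169% elsewhere. These were the same 3 libraries that led most red cell genes. The part of blood content, tissue composition or dissection in the shared pattern was not tested.

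Epidermal genes (11 tested) had a median r of 0.44 (0.37). Of the 3 libraries highest in them, control replicate 4 and MeHg replicate 4 were also among the highest 3 for most red cell genes, and MeHg replicate 5 was below the median of ba1. Control replicate 5 held 0.137% of its scaled counts in epidermal genes, the highest share after those 3. The 15 skeletal muscle genes had a median r of 0.56, which was -0.14 without the 2 high libraries, and a median log2 difference of 0.89, with the largest share in MeHg replicate 4. The 6 genes of radial glia and astroglia had a median r of 0.43 (-0.09), and their sum was highest in control replicate 5, at 0.450% against 0.173% to 0.320% elsewhere. Vessel genes (17) had a median r of 0.39 (0.09), oligodendrocyte genes (9) 0.11 (-0.43), neuronal genes (12) -0.14 (-0.49) and the plasma protein genes cp and tfa 0.06. The median log2 differences were -0.26 for thrombocyte, 0.11 for leukocyte, 0.18 for epidermal, 0.08 for glial, 0.11 for vessel, 0.24 for oligodendrocyte, 0.10 for neuronal and 0.65 for plasma protein genes. None of these lists held a gene past the threshold between lineages by limma, and 1 leukocyte and 1 vessel gene were under an unadjusted p of 0.05.

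In each of these lists, the genes with the smallest p between lineages stayed short of the threshold, at limma adjusted p values from 0.680 to 0.947. Thrombocyte genes gave log2 differences of -0.59 ± 0.47 for thbs1b and -0.26 ± 0.52 for gp9. Leukocyte and microglia genes gave -0.80 ± 0.36 for apoeb and 0.51 ± 0.31 for ptprc. Vessel genes gave -0.50 ± 0.20 for fli1a and 0.71 ± 0.38 for cdh5. Skin and muscle genes gave -0.72 ± 0.35 for krt8, -0.46 ± 0.42 for krt94, 1.69 ± 1.1 for tnnc2 and 0.78 ± 0.55 for tpma. Values for brain cells were -0.51 ± 0.28 for gfap and -0.22 ± 0.21 for vim (radial glia), 0.42 ± 0.19 for mpz and 0.31 ± 0.20 for plp1b (oligodendrocytes), and 0.21 ± 0.15 for snap25b and 0.16 ± 0.15 for stmn2b (neurons). The plasma protein genes gave 1.01 ± 0.51 for tfa and 0.29 ± 0.30 for cp.

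The most abundant genes of these lists show which libraries carried them. Among thrombocyte genes, gp1bb was highest in control replicate 5 (316 against a median of 72.2), f13a1b in control replicate 4 (228 against 24.1) and thbs1b in MeHg replicate 4 (its median was 68.4). Among leukocyte and microglia genes, cd74a reached 3585 in MeHg replicate 4 (median 2012) and apoc1l 4216 in control replicate 5 (median 1487). The lead of these abundant thrombocyte, leukocyte and microglia genes was thus spread over the same 3 libraries. Some less abundant ones peaked elsewhere: fermt3b in control replicate 6, mpeg1.1 in MeHg replicate 5 and csf1rb in control replicate 8. The keratins krt5 and krt91 stood at 21010 and 24510 in control replicate 4 and at 328 and 598 in control replicate 5, whereas krt8 was highest in control replicate 5 (3779). Muscle genes peaked in MeHg replicate 4, with 6784 for mylpfa, 5584 for ckmb and 4674 for ckma. The glial genes s100b (12720) and fabp7a (9706) were highest in control replicate 5, as were the vessel genes mcamb (282) and acta2 (255). The most abundant vessel gene, slc2a1a, went the other way, at 62.7 in control replicate 5 against a median of 238. The summed share of the vessel genes was highest in MeHg replicate 4 (0.0386%). Control replicate 2, the lowest library for ba1, came next at 0.03345%. MeHg replicate 8 (0.0314%) and control replicate 5 (0.0308%) followed.

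**Figure D5:**
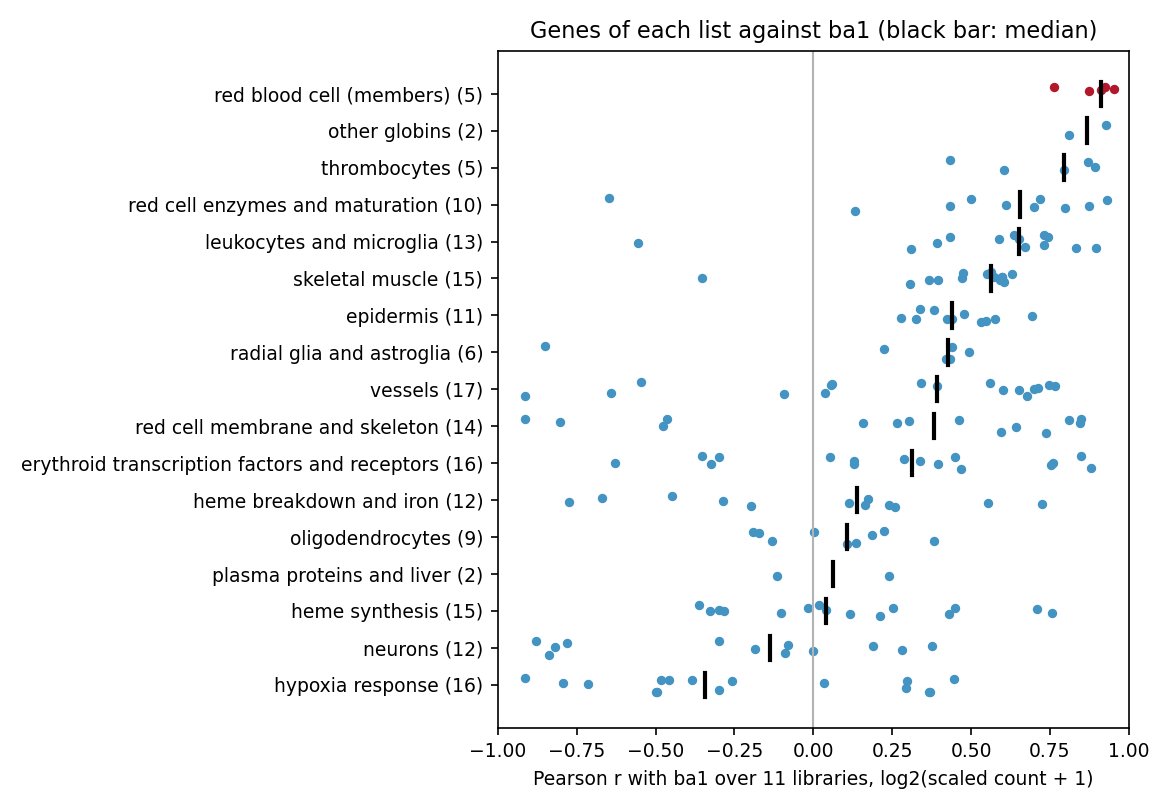
Pearson's r with ba1 over 11 libraries of every tested gene in each list, in log2(scaled count + 1). The list of globins outside red cells is not drawn. Brackets give the number of genes, black bars the median, and red points are the 5 red blood cell genes. The medians run from 0.91 for these 5 genes, 0.87 for other globins and 0.79 for thrombocyte genes to 0.04 for heme synthesis and -0.34 for the hypoxia response.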

How the data were processed

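Brain RNA was sequenced as paired reads of 100 bases and with 12 samples per lane, per the labels' protocols. The submitters' processing notes name TopHat, Cuffnorm, CASAVA 1.8.2, FastQC and cutadapt with the build Zv9, in no stated role. The deposited count table holds scaled counts, read here as signal values that the authors had normalized between libraries: 98.2% to 98.9% of low values were whole multiples of 1 fragment within 0.01. The second table, deposited by the authors, holds FPKM. It served for levels between genes. Each of the 2 tables has 1 column without a sample name, which was not used.

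The members and gene lists were chosen with earlier results of these data known. Lineages were compared with limma 3.58.1 (R 4.3.3; trend and robust estimation) on log2(scaled count + 1), without a block, with Benjamini-Hochberg adjustment over all 16364 genes; fold changes on this scale understate those of low genes. A count model was not run, since the values are not raw counts. Correlations used scipy 1.17.1. The plan named hbaa1 as the reference gene; it has no row, so ba1, the only globin of the set above the filter, took its place. Named genes were all members, the 12 tested genes with a symbol most like ba1, the 2 genes of lowest p in each list, and leading genes by level of other cell types; genes named for their r, and the 4 added globins, were chosen after their values were seen. Table IDs were matched to names through gene tables and RefSeq's GRCz12tu, from which no coordinates were taken. The limma p values set lineage differences against the spread between libraries within the lineages, and the correlation p values come from permuting libraries. The labels state no design beyond a control and a MeHg lineage. Ancestral exposure therefore cannot be told apart from other differences between the lineages. Alternatives were other pseudocounts, filters, scalings, variance models, the FPKM table, a replicate block and leaving out each library; 2 more sets of libraries were left out after the data were seen.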

Additional observations from a re-analysis of the deposited data

Results flagged for a closer look

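In each lineage a library was marked where its gap to the nearest other library, over the range of the lineage, exceeded Dixon's critical value. Of 20 groups (10 genes in each lineage), 9 were marked, all in 2 libraries. The critical values mark about 1 in 20 by chance only where values are normally distributed. The scaled counts were taken without a logarithm and are skewed to the high side, so the marks cannot be set against that rate. The genes also move together, so the marks are not independent. Control replicate 5 stood apart from the other control libraries in ba1 (23549.3), alas2 (1676.27), cahz (4209.48), hbaa1.2 (31025.6), hbba2 (2246.87) and hbaa2 (1212.26). MeHg replicate 4 stood apart within its lineage in ba1 (17404.7), hbaa1.2 (21772) and hbae4 (85.0114). All values are scaled counts.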

How the results depend on the processing

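None of the 6 members passed the threshold under any of the 26 alternatives, with adjusted p values from 0.649 to 0.998. The number of all genes past it was 44; it was 24 with the deposited scaling undone, 105 with array weights, 22 without the 3 libraries highest in epidermal genes (chosen after seeing the data), and 36 to 72 without each library in turn. Signs did not hold, except for nt5c2l1. With the scaling undone, which moved the median of all genes to 0.30, the log2 differences were 0.11 for ba1, 0.14 for alas2, 0.026 for cahz and 0.092 for slc4a1a, all below that median. With array weights they were 0.29 for ba1, 0.40 for alas2, 0.10 for cahz, 0.26 for slc4a1a and 0.14 for epb41b. Without the 2 libraries highest in ba1 (chosen after seeing the data) they were 0.19 for alas2 and 0.0020 for cahz. Without each library in turn they ran from -0.53 to 0.33 for ba1, -0.46 to 0.37 for alas2, -0.48 to 0.22 for cahz, -0.56 to 0.23 for slc4a1a, -0.90 to -0.30 for nt5c2l1 and -0.58 to 0.060 for epb41b. For Pearson's r with ba1, cahz alone lost its call, at an r of 0.36 without the 2 libraries farthest from the median. The cause of these changes was not tested.

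Same-numbered libraries of the lineages deviated together with correlations of 0.099 (number 2), 0.46 (4), 0.19 (5) and 0.055 (8). Number 4 alone was closest to its own partner. The labels state no pairing, and so few correlations cannot settle whether the numbers pair the libraries. A replicate block over these libraries gave 20 genes past the threshold, and the same libraries with no block gave 23.

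With 5 and 6 libraries, intervals of the lineage differences span more than a doubling in both directions for ba1. Depth limits the embryonic globins, and globin copies without a row limit what the ba1 and hbaa1.2 rows stand for.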
